A study of Homo sapiens with 12 samples.

Results

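The genes described here are 42 listed genes of DNA replication and S phase. They were taken from the count table by matching Ensembl gene identifiers, without their version numbers, to the listed symbols. Of the 42 symbols, 41 had a row, out of 57783 rows in all, and UHRF1 matched none. All 41 passed the filter on low counts, which kept 16327 genes, so no listed gene with a row was lost to it. The rule that lists them uses no measured value, but the genes were chosen with earlier results of these data known.

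Before a cell copies its DNA, the origin recognition complex (ORC), CDC6 and CDT1 load the MCM helicase onto chromatin, a step called licensing. CDC45 and the GINS complex then join MCM to form the active helicase, and the polymerases copy the strands behind it with the sliding clamp PCNA, which the RFC loader places on DNA. Cyclin E and the E2F transcription factors drive entry into S phase, and many genes of this machinery are textbook E2F targets whose messages rise towards S phase in dividing cells.

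The libraries came from MDA-MB-468, an established triple-negative human breast cancer line grown in culture. All cells were given an agent for 10 days and then sorted by ALDH1, an aldehyde dehydrogenase activity used to mark stem-like tumour cells. The first group received EPZ5676 at 0.5 µM, which inhibits DOT1L, an enzyme that methylates histone H3, and was sorted as ALDH1+, and the second received DMSO, the solvent control, and was sorted as ALDH1+. The other 2 groups, EPZ5676 and DMSO, were sorted as ALDH1-. Each of the 4 groups had 3 libraries, labelled as biological replicates 1 to 3, and what separated those replicates was not stated, so the p-values measure the spread between these libraries. All 12 libraries are of 1 line, at 1 dose and 1 time. No library of cells before sorting was used, and none was labelled as given neither EPZ5676 nor DMSO.

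Total counts ranged from 24348594 to 80195050 per library. The deepest were EPZ5676 ALDH1+ replicate 2, at 80195050, and DMSO ALDH1+ replicate 3, at 58004508. The epithelial markers EPCAM, KRT8, KRT18, KRT19 and EGFR were high in all 12 libraries, with EPCAM between 520 and 781 CPM, the TMM-scaled count per 1e+06 counts. PGR, the progesterone receptor, had no count in 11 of the 12 libraries, ESR1 lay between 6.83 and 10.8 CPM, and ERBB2 between 34.0 and 66.4 CPM. Across 9 matched markers of leukocytes, fibroblasts and endothelium, the summed level was 33.9 to 35.1 CPM in EPZ5676 ALDH1+ libraries and 17.5 to 22.7 CPM in DMSO ALDH1+ libraries. It was 30.0 to 37.5 CPM in EPZ5676 ALDH1- libraries and 19.3 to 24.9 CPM in DMSO ALDH1- libraries. COL1A1 and CSF1R made up most of the sum. In ALDH1+ cells their means were 23.2 and 8.79 CPM with EPZ5676, against 11.6 and 5.23 CPM with DMSO. CD14 went the other way, at 1.17 against 2.60 CPM. Of 5 that passed the filter, 4 were higher and 1 lower with EPZ5676 in ALDH1+ cells by edgeR at an adjusted p under 0.05. In ALDH1- cells 3 were higher and 0 lower. Of all genes, 17.8% were higher and 13.7% lower in ALDH1+, and 13.6% and 9.04% in ALDH1- cells. CD3E, LYZ and VWF had no count in 10, 9 and 1 libraries, and the part of this list in the results on replication genes was not tested. RB1, the retinoblastoma repressor of E2F factors that this line is known to have lost, lay between 1.06 and 2.04 CPM. DOT1L itself is inhibited as a protein, so its message does not check the treatment. On the log2 fold change scale by edgeR that message was at -0.11 (SE 0.10, adjusted p = 0.413) in ALDH1+ cells. In ALDH1- cells it was at -0.25 and did not reach an adjusted p under 0.05. Its ALDH1- libraries had 57.7 to 73.0 CPM with EPZ5676 and 75.8 to 85.3 CPM with DMSO.

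The first comparison set EPZ5676 against DMSO in ALDH1+ cells. With EPZ5676, 15 of the 41 genes were lower and 1 was higher at an adjusted p under 0.05, by edgeR's quasi-likelihood test with Benjamini-Hochberg adjustment over 16327 genes. Of all genes tested, 13.7% were lower and 17.8% higher. The median log2 fold change was -0.29 over the 41 genes and -0.01 over all genes. Of the 41, 37 lay below 0, against 51.5% of all genes. The lower genes came from 7 of the 8 roles, with all 4 genes of deoxynucleotide supply among them, and the higher one was the cyclin CCNE1. In bulk RNA, fewer cells in S phase and less of these messages per cell cannot be told apart.

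The second comparison set EPZ5676 against DMSO in ALDH1- cells, with separate libraries on both sides. Whether ALDH1+ and ALDH1- libraries of the same number came from the same culture is not stated, so it is not taken as an independent repeat. Here 6 of the 41 genes were lower and 1 was higher by edgeR, against 9.04% of all genes lower and 13.6% higher. The median log2 fold change was -0.25 over the 41 genes and -0.02 over all genes. Again 37 of the 41 lay below 0, against 53% of all genes. The 6 lower genes, POLE, MCM7, RFC5, LIG1, CDT1 and POLD1, were also called lower in ALDH1+ cells, and CCNE1 was called higher in both. The share of all genes called the same way in both populations was not counted, so this overlap is not read as particular to these genes.

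Promoter sequence is shown for the 7 genes called in both populations and for E2F1, so that their E2F-type words can be read beside their changes. RefSeq promoter windows on GRCh38.p14, from 250 bases before to 50 bases after a transcription start, were listed for 35 of the 42 symbols. They were searched on both strands for the E2F-type words TTTCCCGC, TTTCGCGC, TTTGCCGC and TTTGGCGC and for CCAAT, a word bound by the factor NF-Y. An E2F-type word stood in a window of 21 of the 35 genes (60%), against 1090 of all 27305 symbols with a window (3.99%), and CCAAT in 22 of 35 (62.9%), against 10846 (39.7%). The 150 bases before the first listed start are given 5′ to 3′, with the letters of these words in capitals. The stretches are POLE at chr12:132687343-132687492 (minus strand), MCM7 at chr7:100101398-100101547 (minus strand), RFC5 at chr12:118016553-118016702 (plus strand), LIG1 at chr19:48170345-48170494 (minus strand), CDT1 at chr16:88803639-88803788 (plus strand), POLD1 at chr19:50384173-50384322 (plus strand), CCNE1 at chr19:29811841-29811990 (plus strand) and E2F1 at chr20:33686386-33686535 (minus strand).
POLE: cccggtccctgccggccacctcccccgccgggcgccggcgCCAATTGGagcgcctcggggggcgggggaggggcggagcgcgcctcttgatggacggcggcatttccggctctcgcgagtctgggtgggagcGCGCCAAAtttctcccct
MCM7: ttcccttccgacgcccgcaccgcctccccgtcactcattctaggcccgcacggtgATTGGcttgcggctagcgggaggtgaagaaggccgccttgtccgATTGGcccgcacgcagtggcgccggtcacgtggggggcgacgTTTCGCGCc
RFC5: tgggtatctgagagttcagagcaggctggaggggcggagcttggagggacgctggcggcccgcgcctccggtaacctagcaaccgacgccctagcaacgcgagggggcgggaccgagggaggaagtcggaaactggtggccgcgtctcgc
LIG1: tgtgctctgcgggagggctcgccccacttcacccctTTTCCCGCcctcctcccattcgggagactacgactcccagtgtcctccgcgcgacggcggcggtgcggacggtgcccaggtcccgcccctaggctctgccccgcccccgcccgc
CDT1: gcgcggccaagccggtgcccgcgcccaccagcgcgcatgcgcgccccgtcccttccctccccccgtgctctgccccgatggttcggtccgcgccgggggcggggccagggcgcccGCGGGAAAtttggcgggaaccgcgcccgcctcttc
POLD1: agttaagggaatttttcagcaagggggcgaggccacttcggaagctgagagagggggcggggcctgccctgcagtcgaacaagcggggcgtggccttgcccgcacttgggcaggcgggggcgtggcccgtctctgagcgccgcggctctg
CCNE1: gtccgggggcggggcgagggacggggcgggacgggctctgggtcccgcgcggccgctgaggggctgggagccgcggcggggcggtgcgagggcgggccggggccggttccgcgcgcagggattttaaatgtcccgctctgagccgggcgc
E2F1: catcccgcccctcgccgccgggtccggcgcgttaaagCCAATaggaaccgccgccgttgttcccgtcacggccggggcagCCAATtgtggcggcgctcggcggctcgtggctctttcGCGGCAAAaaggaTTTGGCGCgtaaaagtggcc
In these stretches POLE, MCM7, LIG1 and CDT1 held 1 E2F-type word each and E2F1 held 2, while RFC5, POLD1 and CCNE1 held none. In POLE the capital run joins CCAAT to its reverse complement ATTGG, which overlap. Among genes with a window, 8 of the 14 called lower in ALDH1+ cells held an E2F-type word (57.1%), and 12 of the 20 tested but not called lower did (60%). These are matches of letters in a window, and binding was not measured.

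In ALDH1+ cells the 4 genes that supply DNA precursors had the lowest median of the 8 roles, at -0.68 on the log2 scale. TK1, thymidine kinase of the salvage pathway, had 67.8, 69.1 and 109.5 CPM in the EPZ5676 libraries, against 142, 144 and 194 CPM in the DMSO libraries. The 3 EPZ5676 libraries lay below all 3 DMSO libraries, and replicate 3 was the highest within each group. The fitted EPZ5676 to DMSO ratio was 0.511, a log2 change of -0.97 (SE 0.19, adjusted p = 0.00133). RRM2, the cell-cycle regulated subunit of ribonucleotide reductase, had 317, 379 and 602 CPM in the EPZ5676 libraries, against 658, 724 and 767 CPM in the DMSO libraries. Its groups did not overlap either, but EPZ5676 replicate 3 was far closer to the DMSO libraries than the other two, and the log2 fold change was -0.73 (SE 0.21, adjusted p = 0.0178). TYMS, which makes thymidylate, had 222, 245 and 325 CPM in the EPZ5676 libraries, against 371, 381 and 467 CPM in the DMSO libraries, and its log2 fold change stood at -0.62 (SE 0.17, adjusted p = 0.0106). TYMS overlaps ENOSF1 on the opposite strand, and whether the counting used the strand is not stated, so reads of that gene may be included. RRM1, the large reductase subunit, averaged 121 ± 26.6 CPM with EPZ5676 and 170 ± 17.8 CPM with DMSO (SD, n = 3 each). All EPZ5676 values of RRM1 were under the lowest DMSO value, at -0.50 (SE 0.15, adjusted p = 0.0173).

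**Figure D1:**
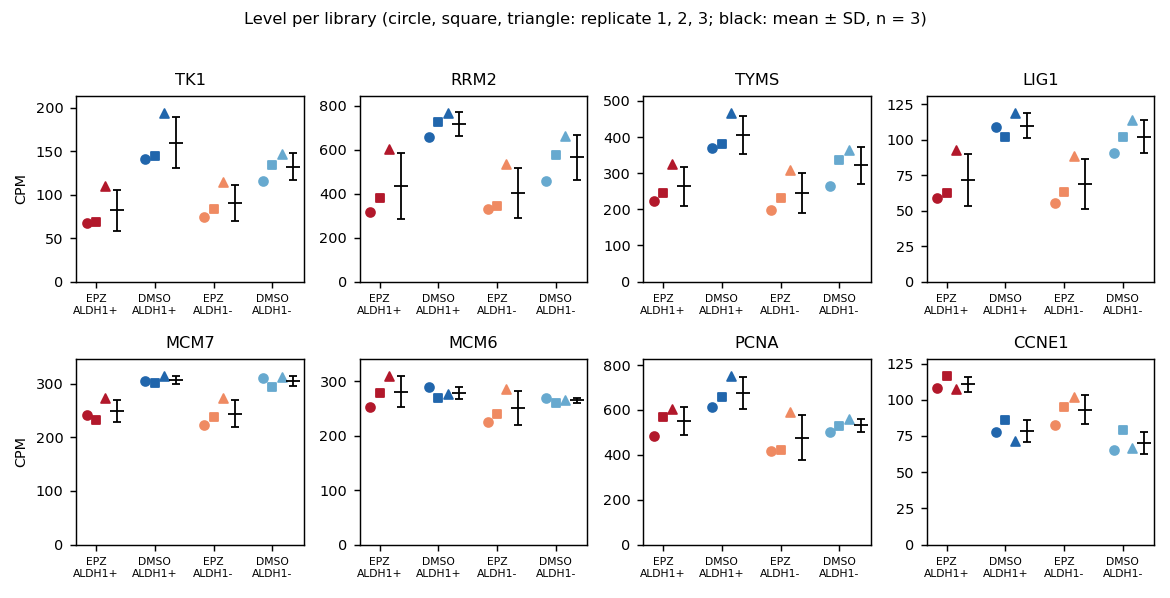
Level of 8 replication and S phase genes in CPM on the vertical axis, in each of the 12 libraries; circles, squares and triangles are replicates 1, 2 and 3, and black marks are the mean ± SD of 3 libraries. TK1 in ALDH1+ cells spans 67.8 to 109.5 CPM with EPZ5676 and 141.5 to 194 CPM with DMSO, and CCNE1 lies higher with EPZ5676 in both populations, while MCM6 overlaps.

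Among the 10 licensing genes in ALDH1+ cells 2 were lower with EPZ5676 and none higher, against 13.7% and 17.8% of all genes. The median log2 fold change of the 10 was -0.13. CDT1, the licensing factor degraded once S phase begins, had 86.5, 91.6 and 109 CPM in the EPZ5676 libraries, against 121, 120 and 129.9 CPM in the DMSO libraries. The groups were apart, with a log2 change of -0.37 (SE 0.10, adjusted p = 0.0132). MCM7, a subunit of the helicase ring, had 242, 233 and 273 CPM in the EPZ5676 libraries, against 305, 301 and 315 CPM in the DMSO libraries, also apart, at -0.30 (SE 0.08, adjusted p = 0.00948). The other 5 ring subunits did not pass. MCM2 had 116, 121 and 150.4 CPM in the EPZ5676 libraries, against 138, 133 and 131 CPM in the DMSO libraries, and MCM5 had 155, 157 and 189 CPM in the EPZ5676 libraries, against 196, 173 and 175 CPM in the DMSO libraries. In both, EPZ5676 replicate 3 lay among or above the DMSO libraries, and the log2 fold changes were -0.05 (SE 0.10, adjusted p = 0.718) and -0.12 (SE 0.10, adjusted p = 0.412). MCM3, MCM4 and MCM6 were at 0.10, -0.14 and 0.01. CDC6, which helps ORC load the ring, had 92.1, 99.5 and 128 CPM in the EPZ5676 libraries, against 118, 117 and 111 CPM in the DMSO libraries and overlapped, at -0.12 (SE 0.12, adjusted p = 0.522). ORC1 and ORC6 were at -0.26 and -0.26, with adjusted p of 0.242 and 0.0525.

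Of the 6 genes that turn the loaded ring into an active helicase, 3 were lower with EPZ5676 in ALDH1+ cells, against 13.7% of all genes. All 6 had a log2 fold change below 0, as had 51.5% of all genes. GINS4 had 30.7, 35.8 and 50.6 CPM in the EPZ5676 libraries, against 58.4, 60.0 and 70.5 CPM in the DMSO libraries, with no overlap and a log2 change of -0.69 (SE 0.17, adjusted p = 0.00637). CDC45 had 35.4, 41.0 and 67.8 CPM in the EPZ5676 libraries, against 75.3, 69.8 and 87.4 CPM in the DMSO libraries. EPZ5676 replicate 3 came close to the lowest DMSO library, and the log2 fold change was -0.69 (SE 0.24, adjusted p = 0.0383). GINS3, at -0.29 (SE 0.10, adjusted p = 0.0302), was the third that fell. MCM10, GINS1 and GINS2 were at -0.37, -0.33 and -0.38, with adjusted p of 0.14, 0.16 and 0.0662.

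Of the clamp and its loader in ALDH1+ cells, the loader subunits RFC3 and RFC5 fell, at -0.49 (SE 0.15, adjusted p = 0.0212) and -0.42 (SE 0.12, adjusted p = 0.012) on the log2 scale. RFC5 had 32.1, 33.2 and 43.4 CPM in the EPZ5676 libraries, against 46.2, 47.6 and 51.1 CPM in the DMSO libraries, with every EPZ5676 library under the DMSO libraries. PCNA had 483, 569 and 605 CPM in the EPZ5676 libraries, against 615, 659 and 753 CPM in the DMSO libraries. Its groups were apart by a small margin, and its log2 fold change of -0.29 (SE 0.12, adjusted p = 0.0884) did not pass. RFC2 and RFC4 were at -0.21 and -0.08, with adjusted p of 0.144 and 0.672.

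Of the 7 polymerase and primase genes 2 fell in ALDH1+ cells, against 13.7% of all genes. They were the catalytic subunits POLD1 of the lagging-strand polymerase delta and POLE of the leading-strand polymerase epsilon. POLD1 had 63.3, 66.8 and 91.4 CPM in the EPZ5676 libraries, against 92.8, 92.5 and 95.7 CPM in the DMSO libraries, narrowly apart, at -0.34 (SE 0.12, adjusted p = 0.0418). POLE had 122, 115 and 145 CPM in the EPZ5676 libraries, against 173, 156 and 138 CPM in the DMSO libraries. The POLE groups overlapped, since EPZ5676 replicate 3 exceeded DMSO replicate 3, and the log2 fold change was -0.29 (SE 0.09, adjusted p = 0.0277). POLE2, POLA1, POLD3, POLA2 and PRIM1 lay between -0.45 and -0.07 and did not pass. Of the genes that bind single strands and join fragments, DNA ligase LIG1 fell, with 59.1, 62.7 and 92.8 CPM in the EPZ5676 libraries, against 109, 102 and 119 CPM in the DMSO libraries and a log2 change of -0.62 (SE 0.17, adjusted p = 0.013). Its groups were apart, while RPA2, RPA3 and the flap endonuclease FEN1 did not pass, at -0.19, -0.26 and -0.05. PCLAF, a PCNA-bound factor, averaged 14.8 ± 3.99 CPM with EPZ5676 and 23.7 ± 4.76 CPM with DMSO (SD, n = 3 each) and passed narrowly, at -0.68 (SE 0.25, adjusted p = 0.0499). CLSPN, the checkpoint adaptor claspin, was at -0.29 (SE 0.16, adjusted p = 0.186).

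Of the 3 regulators of entry into S phase, 1 was higher and none lower in ALDH1+ cells, against 17.8% and 13.7% of all genes. CCNE1, cyclin E1, had 108, 117 and 107 CPM in the EPZ5676 libraries, against 77.5, 86.2 and 71.5 CPM in the DMSO libraries. Every EPZ5676 library lay above every DMSO library, and the log2 fold change was 0.50 (SE 0.10, adjusted p = 0.00115), a ratio of 1.41. CCNE2, cyclin E2, had 57.7, 70.0 and 74.0 CPM in the EPZ5676 libraries, against 64.8, 70.7 and 64.7 CPM in the DMSO libraries, with overlapping groups, at 0.01 (SE 0.13, adjusted p = 0.954). E2F1 had 79.8, 87.1 and 106 CPM in the EPZ5676 libraries, against 115, 107 and 124 CPM in the DMSO libraries. Its groups were apart, yet its log2 fold change of -0.34 (SE 0.13, adjusted p = 0.0503) was just over the threshold.

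**Figure D2:**
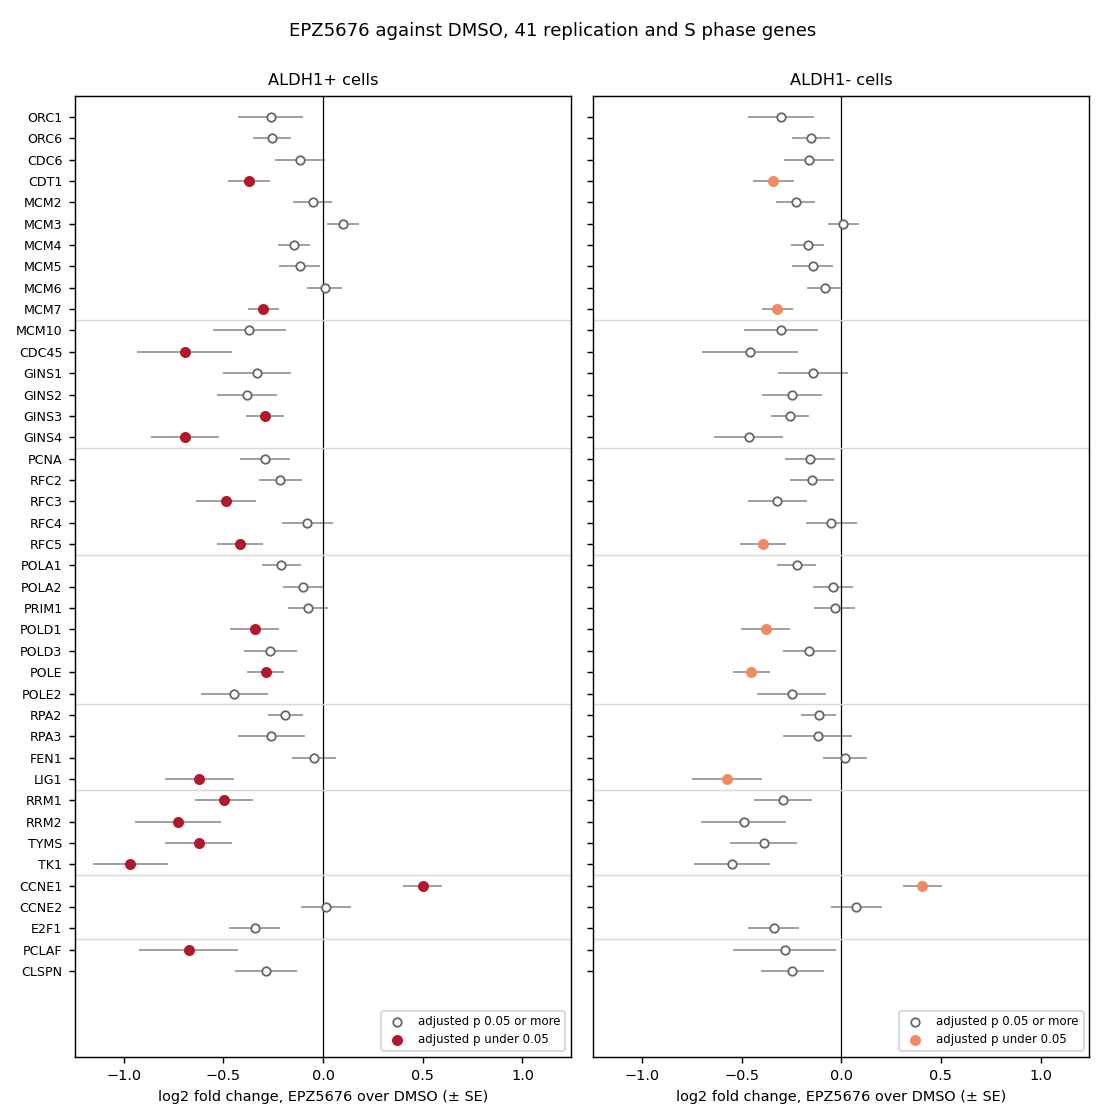
Log2 fold change of EPZ5676 over DMSO for the 41 genes, grouped by role with grey lines, in ALDH1+ cells (left) and ALDH1- cells (right); bars are ± SE of the edgeR fit, and filled points have an adjusted p under 0.05. In each panel 37 of 41 points lie below 0, and CCNE1 is the only filled point above 0.

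POLE had 120.2, 121 and 125 CPM in the EPZ5676 libraries, against 159.6, 165 and 177 CPM in the DMSO libraries in ALDH1- cells. The groups were well apart and its 3 EPZ5676 libraries were close together, with a log2 change of -0.45 (SE 0.09, adjusted p = 0.00255). MCM7 had 223, 237 and 273 CPM in the EPZ5676 libraries, against 310, 294 and 312 CPM in the DMSO libraries, at -0.32 (SE 0.08, adjusted p = 0.00874). RFC5 had 31.7, 31.9 and 39.9 CPM in the EPZ5676 libraries, against 42.5, 45.2 and 48.1 CPM in the DMSO libraries, and its log2 fold change was -0.39 (SE 0.12, adjusted p = 0.0248). In all 3 genes no EPZ5676 library reached a DMSO library. LIG1 had 55.0, 62.8 and 88.3 CPM in the EPZ5676 libraries, against 90.6, 102 and 114 CPM in the DMSO libraries, where EPZ5676 replicate 3 came close to DMSO replicate 1, at -0.57 (SE 0.17, adjusted p = 0.0275). CDT1 had 79.9, 89.1 and 107 CPM in the EPZ5676 libraries, against 108, 120.5 and 121 CPM in the DMSO libraries, with a similarly narrow gap, at -0.34 (SE 0.10, adjusted p = 0.0286). POLD1 had 64.1, 71.1 and 82.5 CPM in the EPZ5676 libraries, against 87.5, 94.2 and 102 CPM in the DMSO libraries, at -0.38 (SE 0.12, adjusted p = 0.0364), with its groups also apart. CCNE1 had 82.3, 95.3 and 102 CPM in the EPZ5676 libraries, against 65.2, 79.0 and 66.5 CPM in the DMSO libraries. Its lowest EPZ5676 library stood above its highest DMSO library, at 0.41 (SE 0.10, adjusted p = 0.00708).

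None of the 4 deoxynucleotide genes passed in ALDH1- cells, although all 4 log2 fold changes were below 0, with a median of -0.44. TK1 had 74.8, 83.0 and 114 CPM in the EPZ5676 libraries, against 116, 134 and 147 CPM in the DMSO libraries. Its groups were narrowly apart, and its log2 fold change of -0.55 (SE 0.19, adjusted p = 0.051) was just over the threshold. RRM2 had 329, 345 and 534 CPM in the EPZ5676 libraries, against 458, 577 and 660.4 CPM in the DMSO libraries, and TYMS had 198, 230.3 and 308 CPM in the EPZ5676 libraries, against 264, 336 and 364 CPM in the DMSO libraries. In both, EPZ5676 replicate 3 lay above DMSO replicate 1, and the log2 fold changes were -0.49 (SE 0.21, adjusted p = 0.121) and -0.39 (SE 0.17, adjusted p = 0.115). RRM1 was at -0.29 (SE 0.15, adjusted p = 0.177).

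The other genes of licensing and helicase activation did not pass in ALDH1- cells. MCM2 had 107, 114 and 136 CPM in the EPZ5676 libraries, against 140.2, 139 and 139 CPM in the DMSO libraries; the groups did not overlap, at -0.23 (SE 0.10, adjusted p = 0.112). MCM5 had 139, 142 and 182 CPM in the EPZ5676 libraries, against 168, 168 and 174 CPM in the DMSO libraries and overlapped, at -0.14 (SE 0.10, adjusted p = 0.357). CDC6 had 82.9, 87.0 and 116 CPM in the EPZ5676 libraries, against 99.9, 105 and 114 CPM in the DMSO libraries, also overlapping, at -0.16 (SE 0.13, adjusted p = 0.404). CDC45 had 31.8, 39.0 and 64.7 CPM in the EPZ5676 libraries, against 53.4, 61.9 and 71.1 CPM in the DMSO libraries, where only EPZ5676 replicate 3 reached the DMSO range, at -0.46 (SE 0.24, adjusted p = 0.203). PCNA had 418, 421 and 591 CPM in the EPZ5676 libraries, against 504, 528 and 561 CPM in the DMSO libraries. There EPZ5676 replicate 3 was above all 3 DMSO libraries, and the log2 fold change was -0.16 (SE 0.12, adjusted p = 0.413). E2F1 had 67.1, 76.9 and 101 CPM in the EPZ5676 libraries, against 101, 105 and 104 CPM in the DMSO libraries and overlapped through EPZ5676 replicate 3, at -0.34 (SE 0.13, adjusted p = 0.0706). CCNE2 had 50.0, 49.4 and 65.8 CPM in the EPZ5676 libraries, against 43.5, 57.9 and 55.5 CPM in the DMSO libraries, at 0.07 (SE 0.13, adjusted p = 0.736), with no separation.

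Whether the EPZ5676 effect differed between the populations was tested as a difference of effects, ALDH1+ minus ALDH1-. edgeR called 0 of the 41 genes in either direction, and 0% of all genes, and 0 of the 41 had an unadjusted p under 0.05, against 3.7% of all genes. DESeq2 called 0 as well. The median difference was -0.06 on the log2 scale, and that of TK1, the furthest below 0, was -0.42 (SE 0.27, adjusted p = 0.979). A difference between the populations in the effect of EPZ5676 was thus not detectable for any of the 41 genes, although more passed in ALDH1+ cells.

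The counts in both treatment comparisons depended on single libraries. They were larger without EPZ5676 replicate 3 and smaller without EPZ5676 replicate 1 or 2. In ALDH1+ cells the number of lower genes was 3, 5 and 25 without EPZ5676 replicates 1, 2 and 3, where 9.06%, 9.16% and 14.5% of all genes were lower. It was 11, 11 and 5 without DMSO replicates 1, 2 and 3, where 13.2%, 12% and 9.04% of all genes were lower. Without all libraries numbered 1, 2 or 3 it was 4, 1 and 30, where 8.07%, 4.11% and 13.2% of all genes were lower. In ALDH1- cells it was 1, 2 and 22 without EPZ5676 replicates 1, 2 and 3, with 5.36%, 5.67% and 8.2% of all genes lower. It was 8, 2 and 2 without DMSO replicates 1, 2 and 3, with 7.42%, 5.43% and 5.4% of all genes lower. Without all libraries numbered 1, 2 or 3 it was 1, 0 and 26, with 4.91%, 2.4% and 8.69% of all genes lower. The direction of the median held in all of these, from -0.40 to -0.19 in ALDH1+ cells and from -0.34 to -0.13 in ALDH1- cells. TK1 and CCNE1 in ALDH1+ cells kept their calls in all 9 such fits each, with log2 fold changes from -1.23 to -0.80 for TK1 and from 0.43 to 0.57 for CCNE1. CCNE1 in ALDH1- cells lost its call only without the libraries numbered 3, at an adjusted p of 0.057, and POLE in ALDH1- cells only without those numbered 2, at 0.0608.

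The replicate numbers themselves marked a level that ran through the genes. Each library was given a score, the median over the 41 genes of log2 CPM minus that gene's mean over the 12 libraries. The scores of replicates 1, 2 and 3 were -0.24, -0.12 and 0.18 in EPZ5676 ALDH1+ and 0.17, 0.21 and 0.27 in DMSO ALDH1+. They were -0.34, -0.27 and 0.08 in EPZ5676 ALDH1- and -0.05, 0.08 and 0.11 in DMSO ALDH1-. Replicate 3 had the highest score in all 4 groups, and its gap to the next library was wider in the EPZ5676 groups than in the DMSO groups. The median over all genes stayed between -0.01 and 0.01 in every library.

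**Figure D3:**
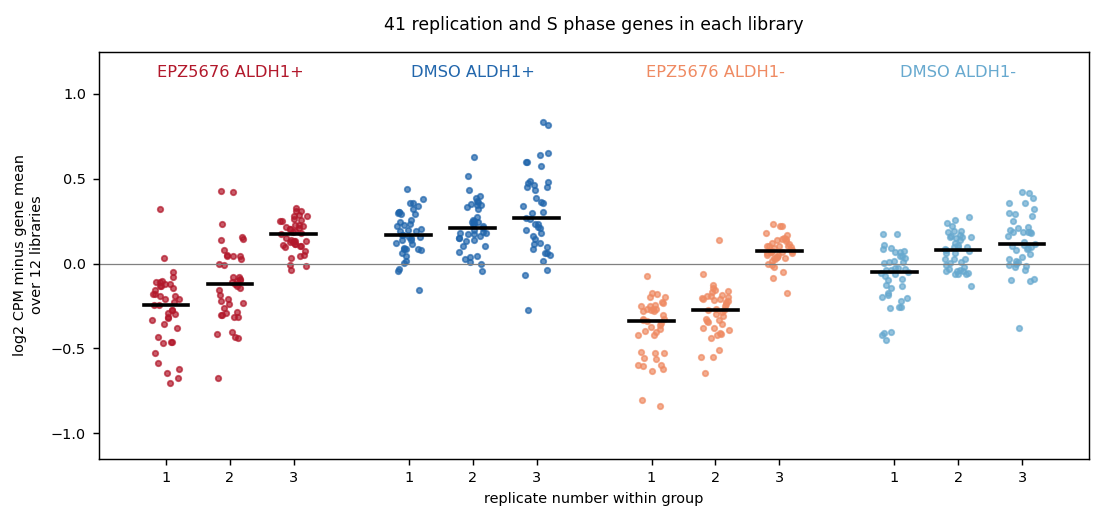
Log2 CPM minus the gene's mean over 12 libraries on the vertical axis, for the 41 genes (points) in each library; black bars are medians, and the horizontal axis is the replicate number within each group. The medians of EPZ5676 replicates 1 and 2 lie between -0.34 and -0.12, and those of EPZ5676 replicate 3 are 0.18 in ALDH1+ and 0.08 in ALDH1- cells.

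Counted gene by gene, replicate 3 was the highest of its group for 38 of the 41 genes in EPZ5676 ALDH1+ and 27 in DMSO ALDH1+. The numbers were 41 in EPZ5676 ALDH1- and 30 in DMSO ALDH1-. Of all genes tested, replicate 3 was highest for 36.7%, 38.6%, 37.9% and 32.1% in the same 4 groups. In all 4 groups at once it was highest for 21 of the 41 genes, against 7.09% of all genes, among them TK1, RRM1, RRM2, TYMS, PCNA, CDC45, LIG1 and MCM7. Exceptions in EPZ5676 ALDH1+ were CCNE1, RPA3 and PRIM1, which were highest in replicate 2. CCNE1 was highest in replicate 3 in 1 group of 4, the EPZ5676 ALDH1- group. In DMSO ALDH1+ the ring subunits MCM2, MCM3, MCM4, MCM5 and MCM6 were highest in replicate 1. Replicate 3 of DMSO ALDH1+ was sequenced more deeply than replicates 1 and 2 of its group, while in EPZ5676 ALDH1+ the deepest was replicate 2.

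Set against the DMSO library of the same number, the treatment difference was smallest for replicate 3. In ALDH1+ cells the median of the 41 differences in log2 CPM was -0.41, -0.34 and -0.16 for numbers 1, 2 and 3, with 40, 37 and 28 genes below 0. In ALDH1- cells it was -0.28, -0.36 and -0.03, with 38, 40 and 25 genes below 0. Among all genes, between 49.3% and 53.3% were below 0 in these 6 pairs. In ALDH1+ cells 27 genes were below 0 in all 3 numbers and 1, CCNE1, was above 0 in all 3, against 30.2% and 30.2% of all genes. In ALDH1- cells it was 24 and 1, CCNE1 again, against 30.7% and 28.2%. For TK1 the differences were -1.06, -1.06 and -0.83 in ALDH1+ cells and -0.64, -0.69 and -0.37 in ALDH1- cells. For CCNE1 they were 0.48, 0.44 and 0.58 in ALDH1+ cells and 0.33, 0.27 and 0.61 in ALDH1- cells. POLE was at -0.50, -0.44 and 0.07 in ALDH1+ cells, where the difference of number 3 was the highest for 36 of the 41 genes. In ALDH1- cells POLE differed from most, at -0.41, -0.44 and -0.50, while number 3 was the highest for 37 of the 41.

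**Figure D4:**
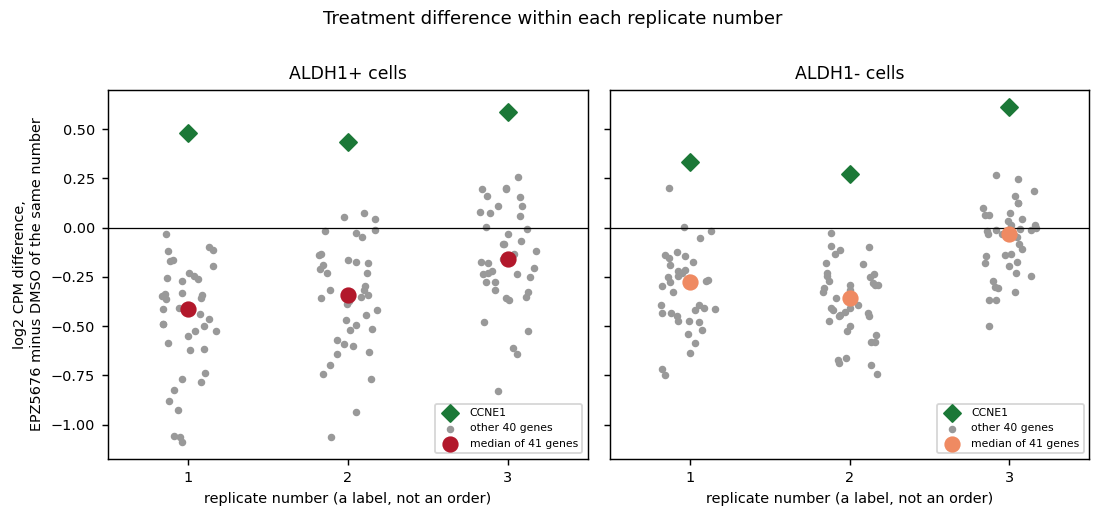
Difference in log2 CPM between the EPZ5676 and the DMSO library of the same replicate number, for the 41 genes, in ALDH1+ cells (left) and ALDH1- cells (right); large circles are medians and green diamonds are CCNE1. The medians are -0.41, -0.34 and -0.16 in ALDH1+ and -0.28, -0.36 and -0.03 in ALDH1- cells, and CCNE1 is above 0 in all 6 pairs.

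The populations were then compared under each treatment, which uses the same libraries as the treatment comparisons in another pairing. Under EPZ5676 edgeR called 0 of the 41 genes between ALDH1+ and ALDH1- cells, where 0.0184% of all genes were higher and 0% lower. At an unadjusted p under 0.05 there were 2 genes, CCNE1 and CCNE2, both above in ALDH1+ cells, among 41, against 3.2% of all genes above and 6.3% in either direction, and DESeq2 called 0. The median log2 fold change was 0.11, and 4 of the 41 genes were below 0, against 50.3% of all genes. Between libraries of the same number, 28 of the 41 genes were above in ALDH1+ cells in all 3 numbers, as were 16.7% of all genes, and 1 was below in all 3, as were 17.5%. CCNE1 had 108, 117 and 107 CPM in ALDH1+ cells, against 82.3, 95.3 and 102 CPM in ALDH1- cells. These groups were apart, at 0.25 (SE 0.10, adjusted p = 0.723). CCNE2 had 57.7, 70.0 and 74.0 CPM in ALDH1+ cells, against 50.0, 49.4 and 65.8 CPM in ALDH1- cells, overlapping, at 0.29 (SE 0.13, adjusted p = 0.784). The median was -0.02 without EPZ5676 ALDH1+ replicate 3 and 0.27 without EPZ5676 ALDH1- replicate 3, so its sign turned without the first of these.

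In DMSO edgeR likewise called 0 of the 41 genes between ALDH1+ and ALDH1- cells, with 0% of all genes higher and 0% lower. This fit had no replicate block, and the 0 depended on that. With the replicate number as a block, 13 of the 41 genes were called higher and 0 lower, against 3.45% and 5.02% of all genes. No label states that the numbers pair the libraries, so the block fit is given only as an alternative. Unadjusted p was under 0.05 for 9 genes, all above in ALDH1+ cells, against 8.1% of all genes above and 17.8% in either direction, and DESeq2 called 0. The median log2 fold change was 0.18, and 3 of the 41 genes were below 0, against 51.6% of all genes. By number, 30 of the 41 genes were above in ALDH1+ cells in all 3, as were 20.7% of all genes, and 1 was below in all 3, as were 25.1%. GINS2 had 83.5, 90.0 and 95.5 CPM in ALDH1+ cells, against 59.1, 67.6 and 70.0 CPM in ALDH1- cells. The groups were apart, at 0.45 (SE 0.15, adjusted p = 0.179). PCNA had 615, 659 and 753 CPM in ALDH1+ cells, against 504, 528 and 561 CPM in ALDH1- cells, apart as well, at 0.35 (SE 0.12, adjusted p = 0.192). PCLAF, at 0.63 (SE 0.25, adjusted p = 0.222), was the furthest above 0, and POLE, at -0.10 (SE 0.09, adjusted p = 0.577), the furthest below. The licensing genes were closest to 0, with a median of 0.07, and MCM2, MCM5, CDC6 and CDT1 were at -0.06, 0.09, 0.11 and 0.09.

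**Figure D5:**
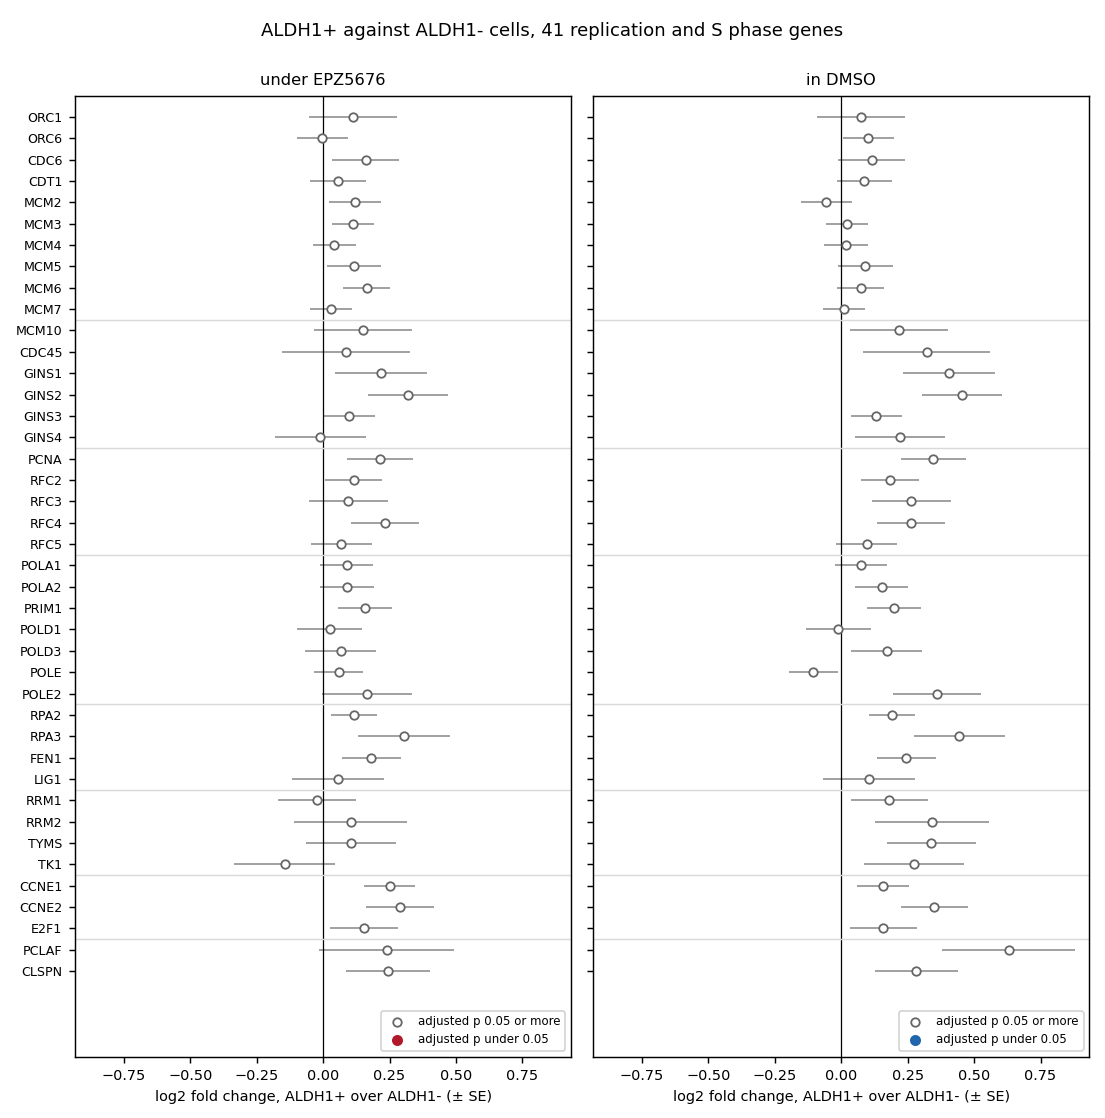
Log2 fold change of ALDH1+ over ALDH1- for the 41 genes, grouped by role, under EPZ5676 (left) and in DMSO (right); bars are ± SE of the edgeR fit, and an open point has an adjusted p of 0.05 or more. All points are open, and 37 of 41 lie above 0 under EPZ5676 and 38 of 41 in DMSO.

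The genes differed in how far their levels ranged over the 12 libraries. The ratio of the highest to the lowest library was 3.2 for PCLAF, 2.87 for TK1, 2.75 for CDC45, 2.42 for RRM2 and 2.36 for TYMS. At the other end it was 1.26 for MCM4, 1.29 for MCM3, 1.35 for PRIM1 and 1.38 for MCM6. All 6 subunits of the MCM ring lay between 1.26 and 1.41.

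Other replication and cell cycle genes give the setting in the same libraries. Of 32 other replication machinery genes, 12 were lower and 1 higher with EPZ5676 in ALDH1+ cells, against 13.7% and 17.8% of all genes. In ALDH1- cells 6 were lower and 1 higher, against 9.04% and 13.6% of all genes. RECQL4, a helicase of replication initiation, was at -0.69 (SE 0.11, adjusted p = 0.000281) in ALDH1+ cells and -0.49 (SE 0.11, adjusted p = 0.00579) in ALDH1- cells. DBF4, the activating subunit of the CDC7 kinase, was at -0.71 (SE 0.12, adjusted p = 0.000435) in ALDH1+ cells and -0.29 (SE 0.12, adjusted p = 0.11) in ALDH1- cells. Of 27 other S phase and E2F-linked genes, 7 were lower in ALDH1+ cells and 4 in ALDH1- cells, with none higher. The shares of all genes were those above, 13.7% and 9.04% lower.

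Of 20 genes of G2 and mitosis, 19 were called lower with EPZ5676 in ALDH1+ cells, against 13.7% of all genes, and 1, MKI67, in ALDH1- cells, against 9.04%. Their median log2 fold change was -0.54 in ALDH1+ and -0.22 in ALDH1- cells, where 19 of 20 were below 0, against 53% of all genes. The difference of effects between the populations was called for 0 of the 20 by edgeR and by DESeq2, and its unadjusted p by edgeR was under 0.05 for 3. The median difference over the 20 was -0.32 on the log2 scale. AURKB, the kinase aurora B, was at -0.94 (SE 0.18, adjusted p = 0.000977) in ALDH1+ and -0.46 (SE 0.18, adjusted p = 0.077) in ALDH1- cells. The proliferation marker MKI67 had 239, 209.7 and 363 CPM in the EPZ5676 libraries, against 373, 418 and 379 CPM in the DMSO libraries in ALDH1+ cells, at -0.53 (SE 0.17, adjusted p = 0.0271). Among 11 D cyclins, their kinases and CDK inhibitors, 3 were higher and 5 lower in ALDH1+ cells, against 17.8% and 13.7% of all genes. In ALDH1- cells 4 were higher and 2 lower, against 13.6% and 9.04%. CCND1, cyclin D1, was at 0.90 (SE 0.10, adjusted p = 6.34e-06) in ALDH1+ and 0.68 (SE 0.10, adjusted p = 0.000117) in ALDH1- cells. The inhibitor CDKN1A, p21, was at 1.12 (SE 0.12, adjusted p = 4.54e-06) in ALDH1+ and 0.94 (SE 0.12, adjusted p = 3.76e-05) in ALDH1- cells. Some other inhibitors went the other way in ALDH1+ cells. CDKN1B averaged 20.3 CPM with EPZ5676 and 29.1 CPM with DMSO. For CDKN2A the means were 77.0 and 102 CPM, and for CDKN2C 20.7 and 33.8 CPM. The groups of CDKN1B and CDKN2A were apart. Those of CDKN2C overlapped, with EPZ5676 replicate 3 at 27.8 CPM and DMSO replicate 1 at 27.2 CPM. The kinase CDK6 was at 1.42 (SE 0.15, adjusted p = 6.99e-06) in ALDH1+ and 1.23 (SE 0.15, adjusted p = 4.07e-05) in ALDH1- cells. The part of the share of dividing cells in the values of the replication genes was not tested.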

How the data were processed

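RNA from sorted cells was made into libraries with a directional kit, per the labels. Reads were handled with Trim Galore and STAR on hg19, per the submitters' processing notes, without versions. What the authors deposited were raw counts per gene, 57783 rows for 12 libraries, made with a counting tool not given in the sources used here.

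From those counts, edgeR 4.0.16 in R 4.3.3 kept 16327 genes with filterByExpr by group, scaled libraries by TMM (factors 0.975 to 1.021) and fitted all 12 libraries with a term per group. The quasi-likelihood test was adjusted by Benjamini-Hochberg over all genes tested, and genes under 0.05 were called. The SE is the log2 fold change divided by the square root of F. CPM are TMM-scaled, and log2 CPM used a prior count of 2. Symbols came from a gene name table by Ensembl identifier. The script was run on simulated data, and the pass mark for recovered changes was lowered before the last run. The simulated libraries shared no effect of the replicate number, so that run does not bear on such an effect. Promoters are RefSeq windows on GRCh38.p14, read apart from the hg19 counts.

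The genes and lists were chosen with earlier results of these data known. All 42 genes could be named. Values in every library were set for MCM2, MCM5, CDC6, CDT1, CDC45, PCNA, RRM2, TYMS, CCNE1, CCNE2, E2F1 and UHRF1 and for up to 8 called genes with the smallest p in a comparison. Of each other list, up to 6 called genes with the smallest p were eligible, with the markers, DOT1L and MKI67. RB1 was added after its values were seen. Replicates of a group differed by more than counting error in all 12 pairs (chi-square per degree of freedom 4.05 to 34.84). The alternatives were other scaling, no filter, DESeq2 1.42.0, a replicate block, only the groups compared, and leaving out libraries.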

Additional observations from a re-analysis of the deposited data

How the results depend on the processing

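Genes called lower with EPZ5676 numbered 15 in ALDH1+ and 6 in ALDH1- cells in the edgeR fit reported. Without the filter on low counts they numbered 25 and 18, with 1 called higher between populations under EPZ5676 and 13 in DMSO. Of all 33418 genes in that fit, 6.89%, 4.57%, 0.416% and 1.61% were called the same way, and the cause was not tested. With the replicate number as a replicate block they numbered 27 and 21, with 13 called higher in ALDH1+ than in ALDH1- cells in DMSO, where 19.6%, 14.8% and 3.45% of all genes were called the same way. Over the 16327 genes tested, same-number libraries deviated from their group means with correlations from 0.09 to 0.41, against -0.43 to 0.08 for other numbers. The lowest missed the 0.1 set for treating the numbers as pairs. Over the 12354 genes averaging 1 or more in log2 CPM, a gene set taken up after those results were known, they ran from 0.17 to 0.65. The best correlation was with a library's own number 36 times of 36, a hint from the data and not from the labels.

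Leaving out libraries moved the lower calls between 1 and 30 in ALDH1+ and between 0 and 26 in ALDH1- cells, and the higher call in ALDH1- cells between 0 and 1. The medians then ranged from -0.402 to -0.192 in ALDH1+ cells, from -0.336 to -0.125 in ALDH1- cells, from -0.021 to 0.268 between populations under EPZ5676, from 0.127 to 0.223 in DMSO and from -0.152 to 0.079 for the difference of effects. Of 23 calls of single genes, 5 were lost without scaling factors, 2 with DESeq2, 3 with only the groups compared and none with the replicate block or without the filter. Leaving out a library or a replicate number gave 207 values, 9 for each of those calls, from fits that the genes share. In 95 of these values the call was lost, and in none did the direction change. Every one of the 41 genes had at least 215 counts in each library. Counting error was not small beside the spread in every gene and group, since some spreads were very small. MCM3 in DMSO ALDH1- averaged 394 ± 0.18 CPM (SD, n = 3).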
